A study of Homo sapiens with 8 samples.

Results

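PML::RARA peaks at genes of the Notch pathway were examined in U937-PR9 cells, with 10 genes as members: the receptors NOTCH1 and NOTCH2, the Mastermind coactivators MAML1, MAML2 and MAML3, the DNA-binding factor RBPJ, the target repressors HES1 and HES4, and the regulators DTX2 and NUMB. The members were chosen by results of the same list of peaks, so the presence, height and width of their peaks are given as a description and no test was made of them. Every peak whose promoter label was a member was taken, with each unlabelled peak whose centre lay within 50 kb of such a peak, and with all peaks of a window over MAML3. This gave 26 peaks of the 15412 in the list, of which 6 carried the label of a member and 20 carried no gene label. By gene, 12 belonged to MAML3, 7 to HES1, 4 to NUMB, 2 to RBPJ and 1 to MAML1. NOTCH1, NOTCH2, MAML2, HES4 and DTX2 had no labelled peak.

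The cells, U937-PR9, descend from the human myeloid line U937, and zinc switches on the promoter of the PML::RARA transgene they carry. All 8 Cut&Run libraries described here came from this 1 line. Induction was by 100 μM ZnSO4 over 5 h, uninduced cultures were given water over the same time, and nuclei of each were profiled by Cut&Run, in which a nuclease tethered to an antibody frees the bound DNA for sequencing. With 1 antibody against PML::RARA and 1 against RARA, and each antibody was applied to 2 replicates per state. The peaks described here are from induced cells and the antibody against PML::RARA, and are those that the authors kept as reproducible between the 2 replicates. The other lists were not analysed here. Since every induced culture received zinc and no uninduced culture did, PML::RARA and zinc itself cannot be told apart by the design. The list holds no value per replicate and no depth. Of 8 myeloid marker genes 6 had a promoter label (SPI1, CSF1R, ITGAM, MPO, CEBPA and CD14), while CD33 and LYZ had none. A label was present for 0 of 4 T cell, 1 of 4 B cell (CD79A) and 0 of 4 erythroid markers. Among all protein-coding genes 29.9% had a label, so 0 or 1 of 4 is not a marked lack. A peak of PML::RARA holds no measure of expression, so these counts are only a rough check of the cell type.

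Notch receptors are cut after they bind a ligand on a neighbouring cell. The freed intracellular domain enters the nucleus and joins RBPJ and a Mastermind protein on DNA, which turns RBPJ from a repressor into an activator of genes such as HES1. In blood the pathway is best known for directing progenitors to the T cell fate. NUMB opposes the receptor, and Deltex proteins such as DTX2 are ubiquitin ligases that act on its trafficking.

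To show the DNA under the binding, the sequence around the apex (the position of largest signal) of the highest peak of each of the 5 genes is given on the plus strand of hg19, without annotated exons. Capitals mark the motifs described with the motif counts. They are an AP-1 match and a C/EBP match in HES1, a retinoid receptor hexamer in RBPJ and in MAML3, and a C/EBP match in NUMB, whereas the MAML1 window holds no motif searched. The windows are chr3:193807399-193807599 (HES1, intergenic, upstream), chr4:26320839-26321039 (RBPJ, upstream of a start site), chr5:179159610-179159810 (MAML1, promoter), chr4:141016047-141016247 (MAML3, intron 1) and chr14:73925324-73925509 (NUMB, promoter).
HES1: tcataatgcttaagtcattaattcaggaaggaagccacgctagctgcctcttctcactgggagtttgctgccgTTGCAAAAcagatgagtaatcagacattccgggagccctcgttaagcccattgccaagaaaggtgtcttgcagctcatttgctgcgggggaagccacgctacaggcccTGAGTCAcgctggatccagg
RBPJ: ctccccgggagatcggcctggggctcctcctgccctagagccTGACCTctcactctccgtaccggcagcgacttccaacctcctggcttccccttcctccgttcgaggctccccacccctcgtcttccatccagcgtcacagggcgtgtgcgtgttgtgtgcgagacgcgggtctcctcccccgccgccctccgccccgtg
MAML1: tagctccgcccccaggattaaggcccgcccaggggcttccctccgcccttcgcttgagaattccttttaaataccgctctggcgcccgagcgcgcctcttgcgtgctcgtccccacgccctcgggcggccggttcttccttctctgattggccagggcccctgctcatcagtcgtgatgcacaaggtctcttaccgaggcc
MAML3: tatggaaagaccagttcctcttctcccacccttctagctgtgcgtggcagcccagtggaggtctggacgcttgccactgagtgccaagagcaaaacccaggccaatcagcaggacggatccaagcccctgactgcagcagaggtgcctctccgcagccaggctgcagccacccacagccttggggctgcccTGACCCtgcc
NUMB: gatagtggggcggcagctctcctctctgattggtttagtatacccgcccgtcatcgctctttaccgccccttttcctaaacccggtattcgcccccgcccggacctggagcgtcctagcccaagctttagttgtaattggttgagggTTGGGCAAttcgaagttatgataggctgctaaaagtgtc

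The member peaks were on the low side of the list in height and width. Height, the largest signal within a peak in the authors' signal units, had a median of 21.5 in the set (range 17 to 58) and of 25 in the list (range 13 to 87). Width had a median of 624.5 bp (range 228 to 2474) against 829.5 bp in the list. At or above the median height of the list stood 11 of the 26 peaks, and 11 reached its median width. Of the set 6 of 26 peaks were labelled, against 46.5% of the list. The rule shapes this share, since it added unlabelled neighbours and, outside the MAML3 window, no labelled peaks but those of members. The medians of the whole set depend on this mix, as unlabelled peaks of the list were lower and narrower. Taken by class, the medians of the labelled and unlabelled peaks lay on opposite sides of those of their counterparts in the list. The 6 labelled peaks had a median height of 38 (range 18 to 46) and a median width of 1405.5 bp (range 414 to 2168). All labelled peaks of the list had medians of 26 and 1108 bp, so the 6 peaks stood on both sides of them. The 20 unlabelled peaks had a median height of 20.5 and a median width of 603 bp, against 23 and 634 bp for all unlabelled peaks. GC content within 200 bp of the apex was near that of the list in both classes, with medians of 66.8% against 64.3% for labelled and 53.2% against 52.9% for unlabelled peaks.

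**Figure D1:**
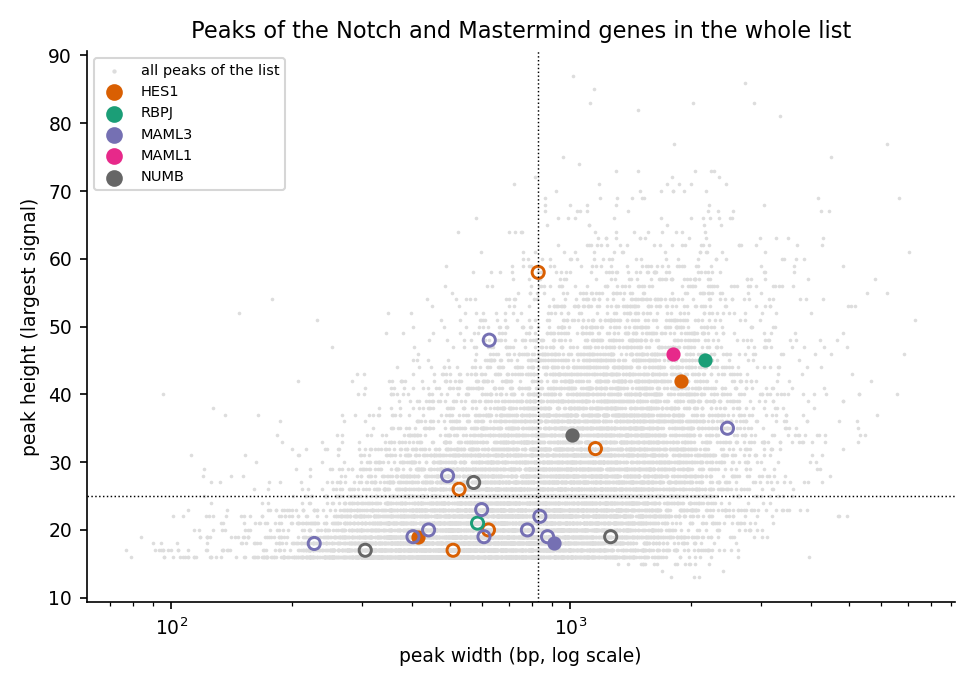
Height of each peak (signal units) against its width (bp) for the 26 peaks, coloured by gene, over all 15412 peaks of the list in grey; filled symbols carry a member label and open symbols carry none. The highest symbol is an unlabelled HES1 peak of height 58 and width 830 bp, and the widest is an unlabelled MAML3 peak of 2474 bp and height 35.

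RBPJ, the DNA-binding factor on which the pathway converges, had the peak with the largest total signal of the set. It lay at chr4:26320602-26322769 and carried the RBPJ label, with a width of 2168 bp, a height of 45 and a total signal of 39592, which exceeded 98.7% of the list. By height it ranked 4 and by width 2 of the 26, and its apex was 319 bp upstream of the nearest of the 43 annotated start sites of RBPJ. The gene (ENSG00000168214) covers 272 kb, and its other peaks were lower. An unlabelled peak at chr4:26275111-26275695, of height 21 and width 585 bp, lay 45.8 kb upstream of the nearest start site and was the last peak that the 50 kb limit took in at RBPJ. Just past that limit, 51.8 kb from the labelled peak, lay a peak of height 24 and width 373 bp at chr4:26374405-26374777. Further away, 1 more intragenic peak (chr4:26198890-26199459) had a height of 26, and 3 peaks between chr4:26136777 and chr4:26143916, upstream of all RBPJ start sites, had heights of 32, 36 and 34. These 5 peaks past the limit are not among the 26.

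The 3 Mastermind genes encode the coactivators that complete the nuclear complex, and they differed in where their peaks lay. MAML1 (ENSG00000161021, 44.5 kb) had 1 peak, at its promoter. This peak, at chr5:179159095-179160897, was 1803 bp wide and 46 high, above 92.8% of the list, ranked 3 by height and 4 by width in the set, and had its apex 113 bp before the start site. No apex lay within the MAML1 gene. The nearest unlabelled peak, at chr5:179104996-179105806, lay just past the limit, 53.7 kb from the labelled one, and was 19 high and 811 bp wide.

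MAML2 (ENSG00000184384, 367 kb), by contrast, had no promoter peak, and the apex nearest to its start site was 46.8 kb away. That peak was 20 high and its apex lay next to the start site of JRKL. The gene held 2 unlabelled peaks in intron 1, at chr11:95889126-95889859 (height 22, width 734 bp) and chr11:95976147-95976831 (height 34, width 685 bp). The second of these was higher than 75.9% of the list.

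MAML3 (ENSG00000196782, 437 kb, minus strand) had a low promoter peak and 11 unlabelled peaks within the gene. The labelled peak at chr4:141074891-141075800 had an apex 52 bp before the start site, a height of 18, above 13.7% of the list, and a width of 910 bp. It ranked 23 of 26 by height. The next peak inward, at chr4:141071454-141073927 in intron 1, was the widest of the set at 2474 bp, wider than 97.0% of the list. Its height was 35. A gap of 963 bp separated it from the labelled peak, and the apex was 3258 bp downstream of the canonical start site and 2043 bp downstream of the other one. The gene label and the main signal near the start therefore fell on different peaks.

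Further into intron 1, 4 peaks stood within 8.45 kb, with apexes 51.5 to 59.2 kb downstream of the start site. The outermost of them, chr4:141015711-141016336, was the second highest of the set at 48, above 94.2% of the list, but only 626 bp wide, which exceeded 33.7%. Its neighbours had heights of 22 (chr4:141016682-141017519), 28 (chr4:141021040-141021531) and 23 (chr4:141023565-141024163), and widths of 838, 492 and 599 bp. One tall, narrow peak thus stood beside lower ones.

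The other 6 MAML3 peaks were all of height 18 to 20. Of these, 3 lay in intron 1, 111 to 203 kb downstream of the start site, at chr4:140963761-140964201 (height 20, width 441 bp), chr4:140899876-140900103 (height 18, width 228 bp, the narrowest of the set) and chr4:140871772-140872647 (height 19, width 876 bp). After a gap of 187 kb, 3 more lay in intron 2, 390 to 413 kb downstream, at chr4:140684585-140685191 (height 19, width 607 bp), chr4:140670558-140670960 (height 19, width 403 bp) and chr4:140661468-140662247 (height 20, width 780 bp). The first of the intron 2 peaks lay 764 bp from the start of a long noncoding RNA gene (ENSG00000286320). In all, 7 of the 12 MAML3 peaks had a height of 20 or lower and 9 were below the median of the list.

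The count at MAML3 depends on how the peaks were taken. All peaks of a window of 450 kb entered, and 10 of the 12 lay more than 50 kb from the labelled peak, so the count is not comparable with those of the other members. Beside windows of the same length, 95.6% of the 6737 that tile the genome held fewer peaks and 98.5% held fewer unlabelled peaks. Among the 3300 windows with a peak, 96.9% held fewer unlabelled peaks than the 11 at MAML3. Of 1502 protein-coding genes of 200 kb or more, 99.1% held fewer apexes than the 11 in the MAML3 gene, 12 held more and 927 held none. Per 100 kb the gene held 2.51 apexes, against 1.47 in RBPJ, 0.546 in MAML2 and 3.87 in the shorter NOTCH1 gene. Gene lengths were taken between the outermost annotated ends. Outside the window, the neighbouring peaks were 42.4 kb away on the MGST2 side (height 26, width 837 bp) and 78.6 kb away on the other side (height 24, width 1299 bp).

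**Figure D2:**
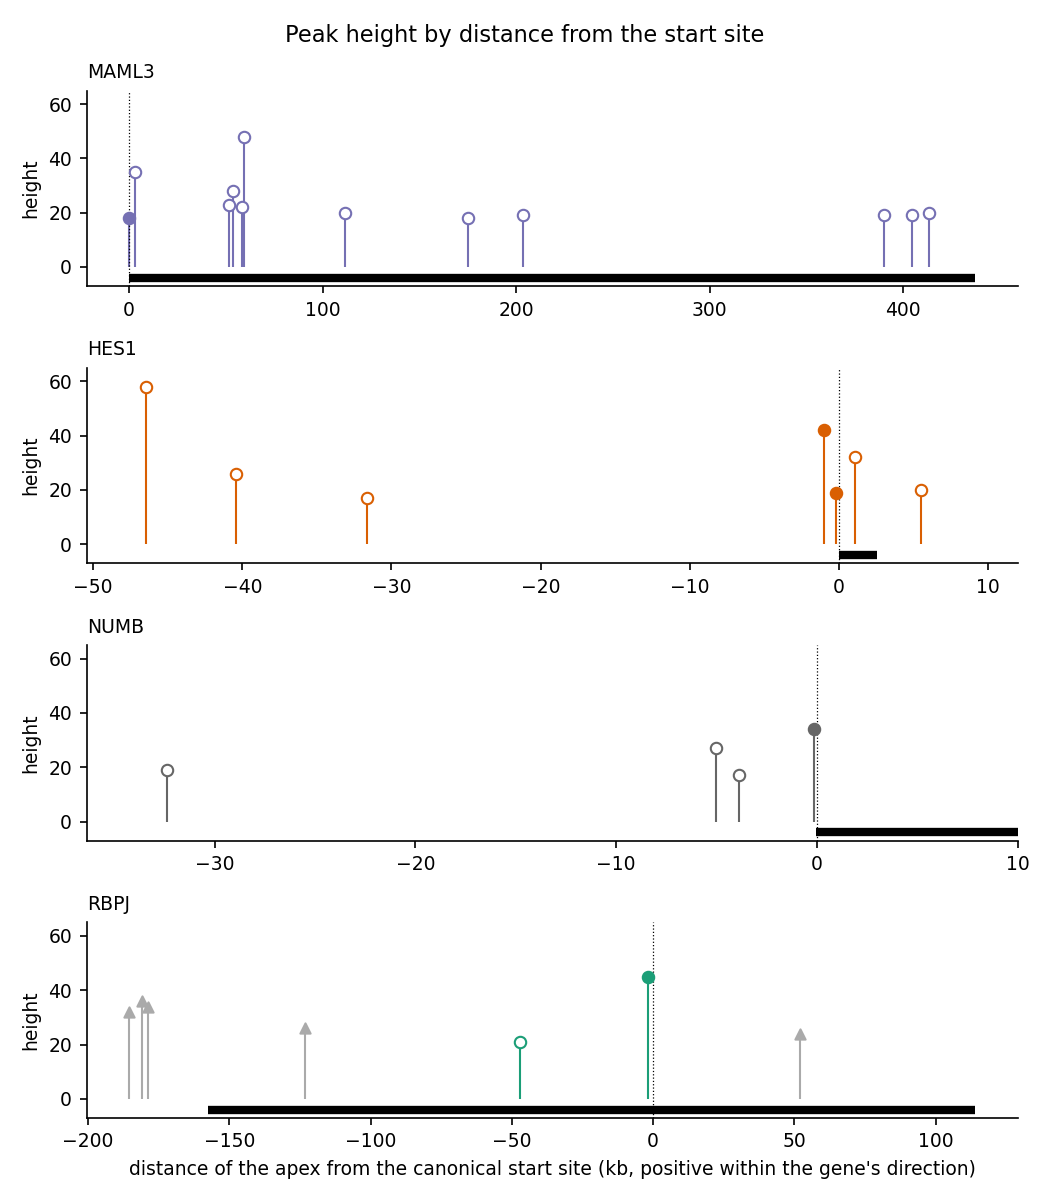
Peak height (signal units) by distance of the apex from the canonical start site (kb, positive in the direction of transcription) at MAML3, HES1, NUMB and RBPJ; filled symbols are labelled peaks, open symbols unlabelled peaks of the set, grey triangles unlabelled peaks at RBPJ past the limit, and the black bar is the gene, cut at the edge for NUMB. At HES1 the highest symbol (58) is 46.4 kb upstream, and at MAML3 the highest (48) is 59.2 kb downstream.

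**Figure D3:**
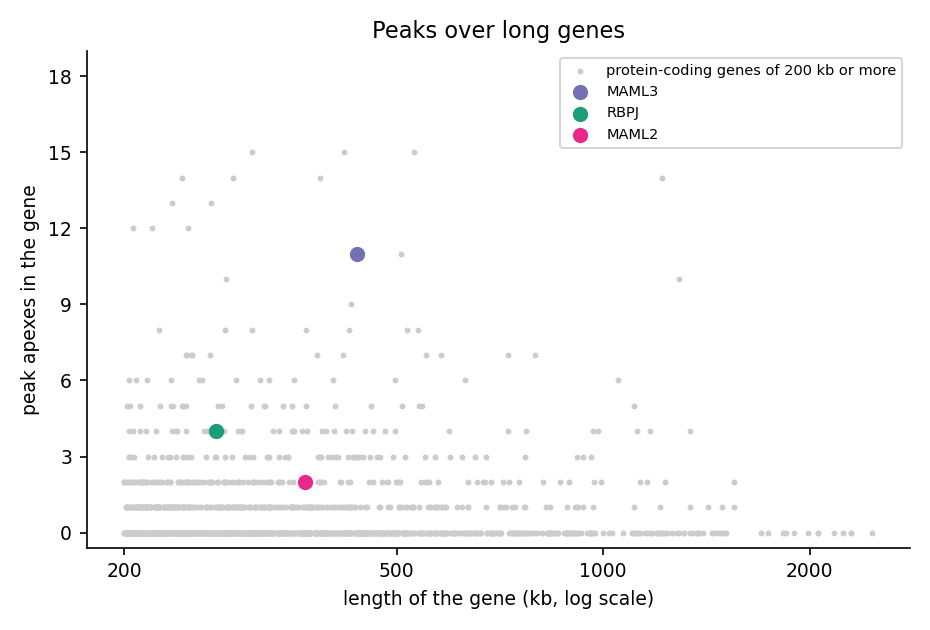
Number of peak apexes within each of 1502 protein-coding genes of 200 kb or more against gene length (kb, log scale), with MAML3, RBPJ and MAML2 in colour. MAML3 holds 11 apexes in 437 kb, RBPJ 4 in 272 kb and MAML2 2 in 367 kb, and 12 genes lie above MAML3.

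HES1, a basic helix-loop-helix repressor and the classical direct target of Notch, had 7 peaks in 3 places. The highest of the set lay far upstream, at chr3:193807062-193807891, with a height of 58, above 98.5% of the list, a width of 830 bp and no label. Its apex was 46.4 kb upstream of the HES1 start site and 1851 bp from the start of a long noncoding RNA gene (ENSG00000229964). Within that noncoding gene followed peaks at chr3:193813244-193813769 (height 26, width 526 bp) and chr3:193822037-193822544 (height 17, width 508 bp). Of the 3 upstream peaks, that farthest from HES1 was thus the highest.

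Around the start site, 3 peaks were separated by 161 and 684 bp. The labelled peak at chr3:193851569-193853455 was 1887 bp wide and 42 high, its apex lying 1004 bp before the HES1 start site and 75 bp from that of a noncoding gene (ENSG00000289385). The second labelled peak, chr3:193853617-193854030, had its apex only 181 bp before it but was low and narrow (height 19, width 414 bp). An unlabelled peak within the gene (ENSG00000114315), at chr3:193854715-193855869, was 32 high and 1155 bp wide. The peak nearest the start site was therefore lower than those on either side of it. The last peak, chr3:193859392-193860014, lay 5503 bp downstream of the start site with a height of 20, a width of 623 bp and a GC content of 78.8%, the highest of the HES1 peaks. Across the 50 kb limit, the next unlabelled peak upstream lay 63.1 kb from the labelled one, at chr3:193787407-193789497, and was 35 high and 2091 bp wide.

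NUMB (ENSG00000133961, 184 kb, minus strand), which encodes an endocytic adaptor that inhibits Notch, had 1 labelled and 3 unlabelled peaks, all with an apex upstream of the gene. The labelled peak, chr14:73924632-73925639, was 34 high and 1008 bp wide, the apex lying 86 bp before the nearest start site. The unlabelled peaks were at chr14:73928943-73929248 (height 17, width 306 bp), chr14:73929981-73930552 (height 27, width 572 bp) and chr14:73957422-73958682 (height 19, width 1261 bp). Each of the 3 lay at the start of another gene, 22 bp and 32 bp from noncoding genes (ENSG00000251393 and ENSG00000284930) and 9 bp from RIOX1, which encodes a nucleolar dioxygenase. They belong to NUMB by distance only. No apex lay within the NUMB gene.

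The receptors had no promoter label, yet NOTCH1 had a peak over its start site. NOTCH1 (ENSG00000148400, 51.6 kb, minus strand) lies next to the microRNA gene MIR4674, whose label the peak at chr9:139439836-139442187 carried. This peak was 2352 bp wide, wider than 96.4% of the list, and 21 high, above 30.6%, the apex lying 177 bp before the NOTCH1 start site. A start site of the long noncoding RNA gene NALT1 was nearer, 13 bp from the apex. Intron 2 of NOTCH1 held 2 more peaks without a label, chr9:139427532-139428716 (height 18, width 1185 bp) and chr9:139434055-139434828 (height 27, width 774 bp). None of the 3 is among the 26. Beyond the gene, the nearest labelled peak was that of SEC16A, a gene of the secretory pathway, at a height of 33 over 1273 bp.

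NOTCH2 (ENSG00000134250, 189 kb) held no peak, and the nearest apex was 195 kb away, in a peak labelled FAM72B with a height of 17. DTX2 (ENSG00000091073) also held none, the nearest apex being 32.7 kb away in a peak of height 24 labelled ZP3, and a peak of height 22 labelled LOC100133091 lay 45.9 kb away on the other side. The sequence around both start sites recurs in the genome. Of the 952 words of 50 bases within 500 bp of the start site, counted on the reference genome, 68.1% at NOTCH2 and 94.7% at DTX2 occurred elsewhere, against 0% at each of the other 8 members. The study's methods name Bowtie2 and default parameters for most steps, without stating whether reads with several matches were filtered, and the part of this in the missing peaks was not tested. HES4 (ENSG00000188290, 1.21 kb), a HES1 relative, had its nearest apex 21.1 kb away in a peak labelled AGRN, which encodes agrin, 17 high and 876 bp wide. A second, unlabelled peak over AGRN, chr1:973963-976451, was 27 high and 2489 bp wide.

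To place the members in the pathway, 66 genes were grouped by role, from ligands to targets. A promoter label was present for 26 of them (39.4%, Wilson 95% interval 28.5 to 51.5), and for 21 of the 56 that are not members (37.5%, 26 to 50.6). Among all 20146 protein-coding genes, 29.9% had a label, which lies within both intervals. With an apex within 1 kb of an own start site as the criterion, irrespective of the label, 33 of the 66 genes (50%) had a peak, against 39.2% of all coding genes. In the difference between both counts stood 7 genes whose start site had a peak under no label or another gene's label.

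Among the 6 ligands only JAG1 was labelled, with a height of 19, while DLL1, DLL3, DLL4, JAG2 and DLK1 were not. A peak of height 35 lay 185 bp from a DLL1 start site under the label of FAM120B. None of the 4 receptors was labelled, and the nearest apexes to NOTCH4 and NOTCH3 were 1.36 and 3.38 kb away. The intervals of these shares, 3.01 to 56.4% for the ligands and 0 to 49.0% for the receptors, hold the 29.9% of all coding genes. For the receptors this is only a description, since the members NOTCH1 and NOTCH2 were chosen from this same list.

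Of the 14 processing genes, 7 were labelled. APH1A, a γ-secretase subunit, had the highest labelled peak at 56, followed by the metalloprotease gene ADAM10 at 38 and the glycosyltransferase gene MFNG at 33. An unlabelled peak of height 38 and width 1562 bp had its apex 49 bp from an MFNG start site. The processing genes without a label were FURIN, PSEN2, NCSTN, PSENEN, RFNG, POFUT1 and POGLUT1. Of these, NCSTN and PSENEN, which also encode γ-secretase subunits, and POFUT1, an O-fucosyltransferase, had a peak within 1 kb under the label of COPA (height 16), U2AF1L4 (height 33) and PLAGL2 (height 23).

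In the nucleus, 4 of 10 coactivator genes were labelled, namely MAML1 (46), RBPJ (45), the acetyltransferase gene EP300 (26) and MAML3 (18). RBPJL, MAML2, CREBBP, KAT2A, KAT2B and SNW1 were not, although an unlabelled peak of height 17 lay 995 bp from a KAT2B start site. Of 12 corepressor genes 8 were labelled (66.7%, 39.1 to 86.2). This interval lies above the 29.9% of all coding genes. It was not adjusted for the roles compared, and the pathway list was chosen with earlier results known. SIN3A, the scaffold of a histone deacetylase complex, had a peak of height 77 and width 6203 bp, above 99.9% of the list in height. HDAC1 (34), a histone deacetylase gene, and NCOR1 (30), a nuclear receptor corepressor gene, came next. CIR1, CTBP2, L3MBTL3 and RITA1 had no label, with a peak of height 22 labelled DDX54 lying 466 bp from a RITA1 start site.

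Of 11 modulators 5 were labelled (45.5%, 21.3 to 72.0). Among them were AAK1 (36), a kinase of endocytosis, NUMB (34) and FBXW7 (26), the substrate receptor of a ubiquitin ligase that degrades the Notch intracellular domain. DTX1, DTX2, DTX3, DTX3L, ITCH and NRARP were not. HES1 was the only labelled gene of the 9 targets (11.1%, 1.99 to 43.5), HES2, HES4, HES5, HES6, HES7, HEY1, HEY2 and HEYL having none. The intervals of the modulators and of the targets hold the 29.9% of all coding genes. Both roles include members, which were chosen from this same list, so this is a description and not a test. The nearest apexes to HES5 and HES7 were 3.69 and 3.79 kb away.

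**Figure D4:**
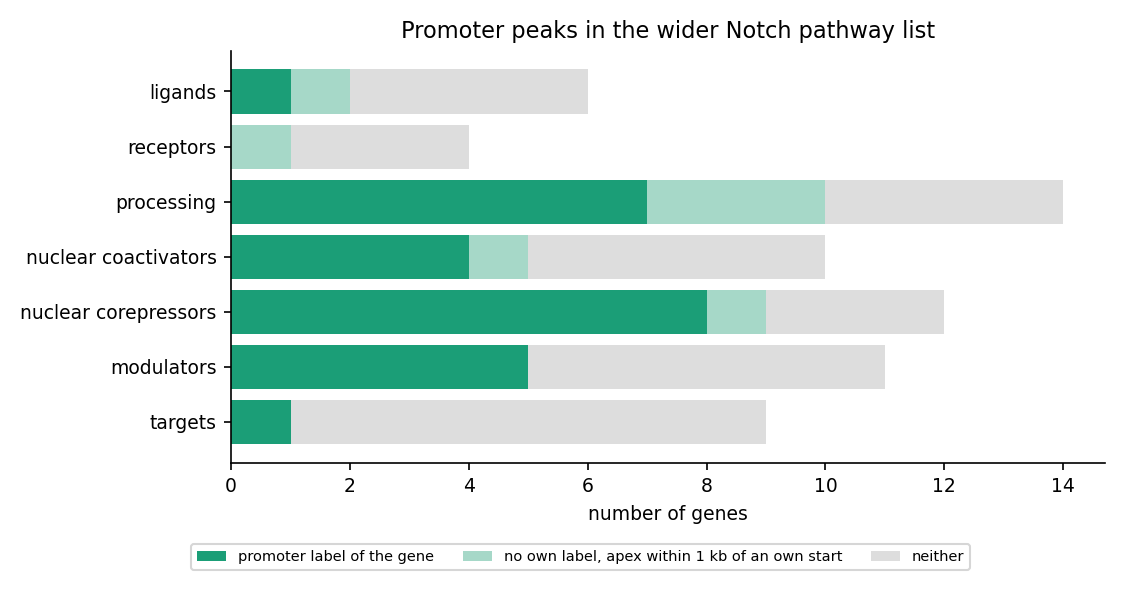
Number of genes in each role of the wider pathway list, divided into those with an own promoter label, those without one but with an apex within 1 kb of an own start site, and those with neither. Labels range from 0 of 4 receptors and 1 of 9 targets to 8 of 12 corepressors, against 29.9% of all coding genes.

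Motifs were counted within 200 bp of the apex on both strands, and a match is only a match of letters. The core bound by RBPJ, TGGGAA, was found in 6 of 26 peaks (23.1%, Wilson 95% interval 11.0 to 42.1), against 29.5% of the list, and its longer form GTGGGAA, which contains it, in 3 peaks (11.5%, 4.0 to 29.0), against 8.36%. The longer form occurred at the second labelled and the intragenic HES1 peak and at the labelled RBPJ peak. None of the 12 MAML3 windows held TGGGAA, for which the upper Wilson bound is 24.2%.

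The matches to the longer form, GTGGGAA, that lie outside exons are shown with their flanks because RBPJ is the factor through which Notch acts on HES1. They were chosen after the motif counts were seen. Both are on the plus strand of hg19, with TGGGAA or GTGGGAA, or its reverse complement, in capitals. The HES1 run, chr3:193853837-193853873, holds the longer form 85 bp upstream of the start site and a second core after it. The RBPJ run, chr4:26321073-26321109, holds it in reverse 170 bp upstream of the nearest start site.
HES1 promoter: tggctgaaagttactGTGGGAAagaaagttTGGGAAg
RBPJ promoter: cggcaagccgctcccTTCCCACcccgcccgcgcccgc

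Motifs of blood cell transcription factors and of retinoid receptors were counted in the same windows. An ETS match (AGGAAGT or GGGAAGT, the second sharing GGGAA with the RBPJ core) was found in 8 peaks (30.8%, 16.5 to 50; list 32.1%). RUNX (TGTGGT) was also found in 8 (30.8%; list 28.7%), 5 of them at MAML3, and AP-1 (TGACTCA) in 5 (19.2%, 8.51 to 37.9; list 14.4%). C/EBP (TTGCNNAA) was found in 8 peaks (30.8%, 16.5 to 50), against 16.8% of the list. A retinoid receptor hexamer (AGGTCA or AGTTCA, or one of the variants GGGTCA and also GGTTCA) was found in 10 peaks (38.5%, 22.4 to 57.5), against 55.3% of the list. A pair of these hexamers in the same direction, 0 to 8 bases apart, was found in 0 of 26 (upper bound 12.9%), against 1.8%. In these windows the share of the list lay within the interval of the set for each motif. With windows around the midpoint of the peak it did not for C/EBP (30.8%, 16.5 to 50, list 15.4%) and the hexamer (34.6%, 19.4 to 53.8, list 54.8%), nor for C/EBP over whole peaks (53.8%, 35.5 to 71.2, list 30.5%). These intervals were not adjusted for the motifs and windows compared. Most of the set is unlabelled, and the classes of the list differed within 200 bp of the apex. Its unlabelled peaks held C/EBP in 22.6% and the hexamer in 63.7%, its labelled peaks in 10.3% and 45.6%. Of the 20 unlabelled peaks of the set, 7 (35.0%) held C/EBP and 9 (45.0%) the hexamer. ETS was at 35.0% against 40.5%, RUNX at 35.0% against 40.3% and AP-1 at 20.0% against 21.9% in unlabelled peaks.

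**Figure D5:**
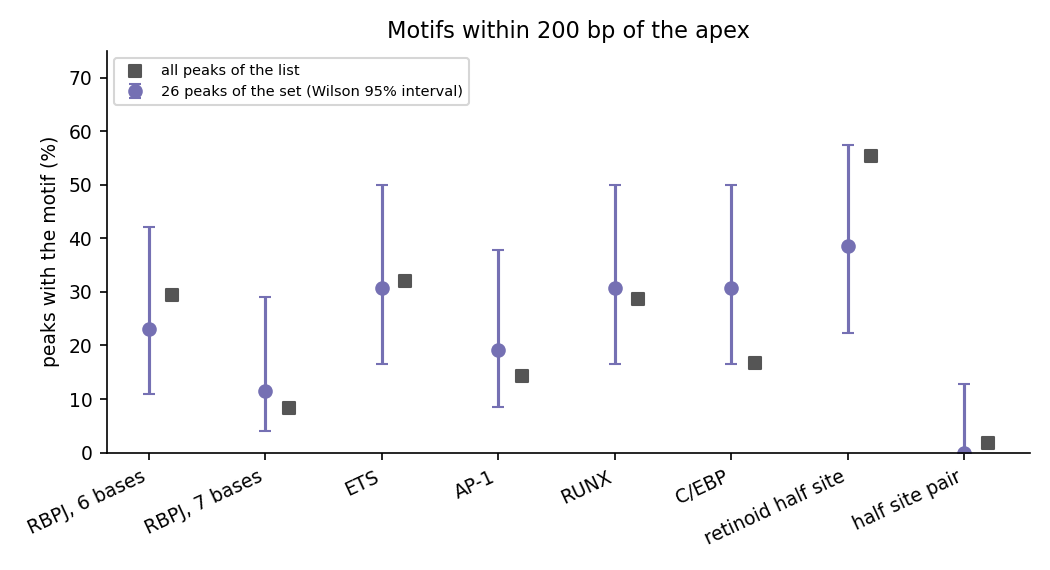
Share of peaks (%) with each motif within 200 bp of the apex, for the 26 peaks (circles, bars are Wilson 95% intervals) and for all 15412 peaks (squares). The squares lie within the bars for each of the motifs, that of C/EBP (16.8% against 30.8% in the set) near the lower end and that of the retinoid hexamer (55.3% against 38.5%) near the upper end.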

How the data were processed

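The analysis started from 1 list of Cut&Run peaks. Per the study's methods, the authors used Trimmomatic for trimming and Bowtie2 for alignment to hg19, took out PCR duplicates (Samtools) and blacklisted regions (Bedtools), called peaks by SEACR against paired controls ("norm union") and kept peaks reproducible at an IDR below 0.05. Versions are not given in the sources used here. The authors deposited for each peak a total signal, a SEACR score (the largest signal, called height) and a width. Whether the signal was scaled, and from which replicate it comes, is not stated. Because its number of peaks equals that given for the induced anti-PML::RARA libraries, the list was taken as theirs. Gene labels are the authors', from UCSC known genes at the apex. Depth is unknown.

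The members, the pathway list and the motifs were chosen with earlier results of these data known. Named were all members, for each role up to 3 genes with the highest labelled peak and all genes without a label, and the neighbours with a label within 50 kb where a member had none. Further genes are named only to locate a peak. Start sites, introns and exons came from GENCODE release 44 on GRCh37 (the coordinates of hg19). Percentiles are the share of the list with a lower value. Wilson intervals cover counting only, and neighbouring peaks are not independent. The functions were tested on simulated data. Python 3.11.15, pandas 2.3.3, numpy 2.4.6, scipy 1.17.1, pysam 0.24.0, matplotlib 3.10.9 and samtools 1.23.1 were used.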

Additional observations from a re-analysis of the deposited data

How the results depend on the processing

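Of 45 alternative values, 13 moved, that is, a count by over 1.5 times, or a median, percentile or share out of the 95% interval of the reported one. Restricted to peaks not below the list's median height, the set shrank from 26 to 11 peaks, the MAML3 window from 12 to 3, and the labelled share of the pathway list from 39.4% to 22.7%. This restriction can only lower a labelled share, and that of all coding genes under it is not given here. The 22.7% is therefore not comparable with the unrestricted 29.9% of all coding genes. Labelled peaks alone had a median height of 38 and a median width of 1405.5 bp. Within 100 bp of the apex the shares of the set were 7.69% for TGGGAA (list 15.1%), 3.85% for GTGGGAA (4.09%), 11.5% for RUNX (19.4%), 15.4% for C/EBP (9.64%) and 19.2% for the retinoid hexamer (35.7%). Over whole peaks they were 50% for TGGGAA (list 54.0%), 26.9% for GTGGGAA (20.3%), 34.6% for AP-1 (21.3%), 53.8% for C/EBP (30.5%) and 69.2% for the hexamer (79.5%), as a longer sequence was searched. A limit of 20 or 100 kb gave 21 or 34 peaks.

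No paired analysis was possible because values are not given by replicate, and none was left out in turn for the same reason. The depth of the libraries is unknown, and a missing peak means only that none was kept in this list.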

Other observations

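Some further genes were picked out after their values were seen. RUNX1, a haematopoietic transcription factor gene, held 14 apexes in an annotated length of 1220 kb (1.15 per 100 kb). MAML3 held 11 in 437 kb (2.51 per 100 kb). These lengths run between the outermost annotated ends of each gene, so the densities depend on the annotation. GSE1 held as many as MAML3, 11 in 507 kb. SPEN, an RBPJ corepressor gene, had a labelled peak of height 16 and width 173 bp at chr1:16173204-16173376. An unlabelled peak of height 52 and width 2226 bp, chr1:16160799-16163024, had its apex 102 bp from a start site of the gene. Of the 3 peaks with an apex within 1 kb of a SPEN start site, 1 more carried the label of FLJ37453.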
